A study of Rattus norvegicus with 13 samples.

Results

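The Kruppel-like factor family was examined in the ventricular zone (VZ) of newborn rats, the layer of neural progenitor cells that lines the lateral ventricle. Its members here are *Klf2*, *Klf3*, *Klf4*, *Klf6*, *Klf7*, *Klf9*, *Klf10*, *Klf12*, *Klf13* and *Klf15*, 10 genes that were taken by name and not by their level. Each name matched 1 of the 14716 deposited rows, so no choice between rows was needed, and all 10 were among the 14606 rows that were tested, those whose mean was at least 10. RNA came from the posterior VZ of male Long Evans pups on postnatal day 2 (PN2), 1 pup per litter. The 7 control pups came from unexposed dams, and the 6 PTU pups from dams that drank water with 3 ppm propylthiouracil (PTU), an inhibitor of thyroid hormone synthesis, from early pregnancy on. The labels name no transgene or mutant allele in either group. The tissue was chosen by its pseudostratified look under a laser capture microscope and taken from both hemispheres, with no sort for a cell type. Fewer cells of a type and less RNA per cell can therefore not be told apart in any value given here.

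Kruppel-like factors are transcription factors that bind GC-rich and CACCC sequences of DNA through 3 zinc fingers at the end of the protein. Their other domains differ and set the partners that they recruit. *Klf3*, *Klf8* and *Klf12* bind the corepressor CtBP, *Klf9*, *Klf10*, *Klf11*, *Klf13* and *Klf16* bind the corepressor Sin3A, and *Klf2*, *Klf4*, *Klf5*, *Klf6* and *Klf7* are mostly activators. In the brain, *Klf9* is best known as a gene induced by thyroid hormone and by glucocorticoids, *Klf7* as a factor for axon growth, and *Klf4* as a regulator of progenitor identity and of axon growth. *Klf2* and *Klf4* also mark endothelium under blood flow, and *Klf6* and *Klf10* are switched on within minutes by growth factors and cytokines.

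The promoters of *Klf9* and *Klf15* are shown because *Klf9* is the member with the longest record as a thyroid hormone target and *Klf15* had the widest difference between the groups. They are the 250 bases before the RefSeq start of each gene in build GRCr8, written along the gene's strand, at chr1:230126396-230126645 (plus strand) for *Klf9* and chr4:124522765-124523014 (plus strand) for *Klf15*. Capitals mark CCAAT and TGACG, the core of the cAMP response element, or their reverse complements ATTGG and CGTCA.
*Klf9*: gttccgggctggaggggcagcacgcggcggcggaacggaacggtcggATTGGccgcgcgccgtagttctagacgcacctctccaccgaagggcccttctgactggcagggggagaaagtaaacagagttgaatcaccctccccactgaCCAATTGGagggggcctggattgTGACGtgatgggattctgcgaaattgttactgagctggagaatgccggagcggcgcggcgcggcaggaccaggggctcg
*Klf15*: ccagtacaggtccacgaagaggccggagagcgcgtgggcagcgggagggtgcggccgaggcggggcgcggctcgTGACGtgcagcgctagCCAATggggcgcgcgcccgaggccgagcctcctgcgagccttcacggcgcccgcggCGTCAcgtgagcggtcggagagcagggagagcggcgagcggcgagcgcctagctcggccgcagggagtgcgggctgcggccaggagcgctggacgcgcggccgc
*Klf9* holds 1 CCAAT, 2 ATTGG, of which 1 overlaps the CCAAT by 2 bases, and 1 TGACG. *Klf15* holds 1 CCAAT, 1 TGACG and 1 CGTCA. RefSeq gave a promoter for 7 of the 10 members (*Klf3*, *Klf4*, *Klf6*, *Klf7*, *Klf9*, *Klf12* and *Klf15*). On either strand TGACG was found in 2 of these 7, *Klf9* and *Klf15*, against 18.2% of all 33469 promoters of that length, and CCAAT in 4 of 7 against 34.02%. The GC box GGGCGG was found in 2 of 7 (30.5% of all promoters), CACCC in 4 of 7 (49.2%), TATAAA in 1 of 7 (12.9%) and AGGTCA, the half-site of the thyroid hormone receptor, in 0 of 7 (14.1%). The windows of the members ranged from 39.6% GC in *Klf12* to 77.2% in *Klf15*, against a median of 51.2% over all promoters. These matches describe letters in a window and are not sites of binding. Whether transcription in the VZ begins at these RefSeq starts was not tested.

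Estimated depth ranged from 22292421 to 44392207 reads per pup, and the 3 highest rows took from 23.9 to 60.1% of them. The lowest value behind a member rested on about 47 reads (*Klf2*) and the highest on about 3001 (*Klf7*). Values are normalized counts, that is, estimated reads divided by a size factor of the pup. They are not corrected for transcript length, so tests compare pups within a row, and where genes of a list are named by their normalized counts the order is no ranking of transcript abundance. The tissue was checked against 10 radial glia markers, of which all had a row. *Slc1a3*, *Vim* and *Fabp7* had the most normalized counts, with means over all pups of 22517, 21221 and 15790 normalized counts. The radial glia score, the mean centred log2 value over the list, was lower in PTU pups by a difference of -0.32 (two-sided exact permutation p = 0.00175, adjusted p = 0.0192 over 11 lists). It was -0.12 when every pup had an equal total (two-sided exact permutation p = 0.498, adjusted p = 0.608). The call thus held under the median ratio scaling and not under equal totals, the only other scaling tried for the scores. The 10 choroid plexus markers, among them *Ttr* with a mean of 73080 normalized counts, also had rows, although the study states that choroid plexus cells were no part of the captured tissue, with summed levels from 51412 to 143630 in control and from 23906 to 103009 in PTU pups. The part of these differences in tissue makeup in the results below was not tested.

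None of the 10 members differed between PTU and control pups at an adjusted p of at most 0.05 in limma, as for 0% of the 14606 rows tested. The adjusted p of the members ranged from 0.251 to 0.969, and the smallest of any row was 0.0981. Without adjustment, p was under 0.05 for 2 of 10 members, *Klf3* and *Klf15*, against 16.3% of all rows. Both were lower in PTU pups (8.2% of all rows), and 0 members were higher at that level (8.11% of all rows). Of the 10 log2 fold changes of the members, 4 were below 0 (49.3% of all rows) and 6 above 0 (50.7% of all rows). The median log2 fold change was 0.07 over the members and 0.0038 over all rows. The groups overlapped in all 10 members, and were free of overlap in 0.596% of all rows. With 10 members, a single gene moves such a share by 10 percentage points. The two-sided exact permutation test over pups gave an unadjusted p under 0.05 for 1 of the 10 members, *Klf3*. Its share over all rows was not computed, so this count cannot be set against a background.

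**Figure D1:**
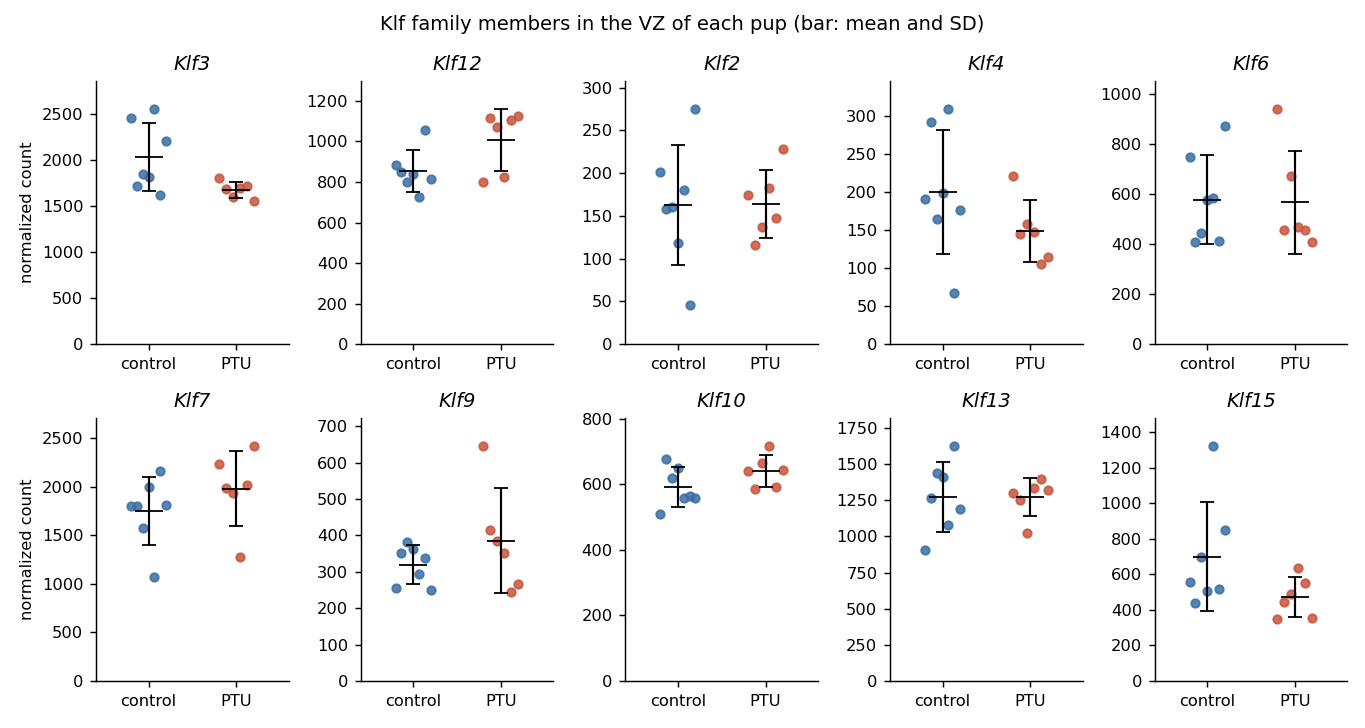
Normalized counts of the 10 Klf members in each pup (vertical axes, linear and from 0, with a scale of their own per panel), for 7 control and 6 PTU pups, with the mean and SD as black bars. The groups overlap in every panel, the 6 PTU pups lie between 1550 and 1801 in *Klf3*, and control pup 5 reaches 1323 in *Klf15*.

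Among the members that bind CtBP, *Klf3* and *Klf12* had group means that differed in opposite directions. *Klf3*, a repressor known from blood and fat cells, ranged in control pups from 1621 to 2552 normalized counts with a median of 1854, and in PTU pups from 1550 to 1801 with a median of 1691. All 6 PTU pups lay below the control median, and 2 of them below the lowest control pup, so that the groups overlapped in their lower part. The means were 2031 ± 372 (SD, n = 7) and 1675 ± 89.0 (SD, n = 6). Its log2 fold change was -0.26 (SE 0.11, 95% interval -0.49 to -0.03) or -16.5%, with an adjusted p of 0.251 in limma. Its two-sided exact permutation p was 0.0414 before adjustment. Variation between pups was narrower in the PTU group, with a coefficient of variation of 5.32% against 18.3% in controls, and the 3 highest control pups, at 2205, 2459 and 2552, had no counterpart among the PTU pups. That difference in spread was not tested.

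*Klf12*, a repressor first described for the AP-2 alpha gene, had 725 to 1057 normalized counts in controls (median 840) against 802 to 1125 with PTU (median 1090). The 13 values fell into 2 sets with a gap from 884 to 1057 between them. Above the gap were 4 of the 6 PTU pups and 1 of the 7 control pups (control 6), and below it 6 control pups and the other 2 PTU pups (PTU 1 and PTU 4). The means were 853 ± 103 (SD, n = 7) and 1008 ± 151 (SD, n = 6), a log2 fold change of 0.23 (SE 0.11, 95% interval -0.0012 to 0.47, adjusted p = 0.309 in limma). Its two-sided exact permutation p was 0.0571, unadjusted.

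Because a size factor multiplies every row of a pup, it cancels in the ratio of 2 members within a pup. The log2 ratio of *Klf3* to *Klf12* lay between 0.62 and 1.82 in control pups, around a median of 1.21, and between 0.46 and 1.17 in PTU pups, around a median of 0.61. All 6 PTU pups lay below the control median, and control 6, at 0.62, lay among the PTU pups. The means were 1.24 ± 0.38 (SD, n = 7) and 0.75 ± 0.29 (SD, n = 6), a difference of -0.49. This pair was singled out after its values were seen, so no test is given. The ratio compares pups and says nothing of which transcript is the more abundant.

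*Klf15*, an activator induced by glucocorticoids that acts in amino acid metabolism and is expressed in astroglia, stands apart in the family tree. It had 441 to 1323 normalized counts in controls (median 559) against 348 to 633 with PTU (median 468). Control 5, at 1323, was far above the other control pups, of which the next was control 7 at 848, and 5 of 6 PTU pups lay below the control median. The means were 699 ± 308 (SD, n = 7) and 471 ± 112 (SD, n = 6), a log2 fold change of -0.51 (SE 0.22, 95% interval -0.97 to -0.04, adjusted p = 0.279 in limma). Unadjusted, the two-sided exact permutation p was 0.0682. On the log2 scale, PTU minus control was -0.34 without control 5. *Klf15* was the member with the widest log2 difference between the groups, and its interval also reaches close to 0.

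The count of 2 members with an unadjusted p under 0.05 changed with single pups, while the log2 fold change stayed between -0.31 and -0.20 for *Klf3* and between -0.60 and -0.34 for *Klf15*. It was 0 without control 5, control 7 or PTU 6 (13.5, 16.2 and 12.3% of all rows in the same fits), 1 without control 1, control 3 or PTU 2 (from 12.6 to 20.5% of all rows), and 4 without control 6 or PTU 4 (16.6 and 17.5% of all rows). When all pups were brought to an equal total, which moved the median of all rows by 0.20, the log2 fold change of *Klf3* was -0.06 and that of *Klf15* -0.30, and the count was 1 (*Klf12*, at 0.44), against 11.4% of all rows. On that scale *Klf9* was at 0.41, *Klf7* at 0.38, *Klf2* at 0.34, *Klf10* at 0.32, *Klf13* at 0.21, *Klf6* at 0.16 and *Klf4* at -0.14. With equal upper quartiles the count stayed 2 (16.3% of all rows), with *Klf3* at -0.26 and *Klf15* at -0.51. With quantile normalization it also stayed 2 (16.7% of all rows), with *Klf3* at -0.27 and *Klf15* at -0.51.

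None of the 4 members that mostly activate differed past the threshold. *Klf2*, the flow-induced factor of endothelium, had 46.2 to 275 normalized counts in controls (median 161) against 116 to 228 with PTU (median 161). Its lowest and its highest value both belonged to control pups, control 6 and control 7. Between the groups, the log2 fold change was 0.14 (SE 0.31, 95% interval -0.52 to 0.80, adjusted p = 0.858 in limma), and -0.13 without control 6. With an interval this wide, smaller differences in either direction were not detectable in this row.

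*Klf4*, which shares the endothelial role of *Klf2* and is also a factor of stem cell identity, had 67.8 to 309 normalized counts in controls (median 191) against 106 to 222 with PTU (median 146). The lowest value was again that of control 6, and 5 of 6 PTU pups lay below the control median. The log2 fold change was -0.34 (SE 0.29, 95% interval -0.95 to 0.27, adjusted p = 0.577 in limma). It was -0.57 without control 6, with an unadjusted p of 0.0168 in limma. RefSeq lists a pseudogene of *Klf4*, and whether reads were shared between the copies was not tested.

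*Klf6*, an early response gene of injury and growth signals, had 407 to 871 normalized counts in controls (median 574) against 406 to 938 with PTU (median 463). PTU 1 was the highest pup and the ranges of the groups nearly coincided. Its log2 fold change was -0.04 (SE 0.21, 95% interval -0.49 to 0.41, adjusted p = 0.947 in limma), and its direction turned under several settings. *Klf7*, the axon growth factor, had 1070 to 2165 normalized counts in controls (median 1799) against 1278 to 2418 with PTU (median 1999). In each group 1 pup was far below the others, control 5 at 1070 and PTU 4 at 1278, and 5 of 6 PTU pups lay above the control median. On the log2 scale, PTU minus control was 0.18 (SE 0.16, 95% interval -0.15 to 0.51, adjusted p = 0.579 in limma), and 0.07 without control 5 or 0.30 without PTU 4.

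The members that bind Sin3A are *Klf9*, *Klf10* and *Klf13*, and none of them differed past the threshold. *Klf9*, the thyroid hormone target, had 250 to 383 normalized counts in controls (median 337) against 245 to 646 with PTU (median 369). PTU 1 was well above every other pup, with PTU 2 next at 415, and 4 of 6 PTU pups lay above the control median. Between the groups, the log2 fold change was 0.21 (SE 0.20, 95% interval -0.20 to 0.63, adjusted p = 0.610 in limma), and 0.05 without PTU 1 or 0.41 with equal totals. The lower end of the interval, -0.20 with all pups, was -0.30 without PTU 1. PTU 1 was also the pup with the highest neuron score, at 1.58 against -1.08 to 0.87 in the others, and whether that score bears on its *Klf9* value was not tested.

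*Klf13*, the closest relative of *Klf9*, had 905 to 1626 normalized counts in controls (median 1269) against 1023 to 1395 with PTU (median 1309). The PTU pups sat within the control range and the means were 1275 ± 242 (SD, n = 7) and 1271 ± 130 (SD, n = 6). The log2 fold change was 0.01 (SE 0.12, 95% interval -0.25 to 0.27, adjusted p = 0.969 in limma). The log2 ratio of *Klf9* to *Klf13* within a pup averaged -1.99 ± 0.19 (SD, n = 7) in control and -1.79 ± 0.57 (SD, n = 6) in PTU pups, which overlapped widely, with 3 of 6 PTU pups below the control median.

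*Klf10*, induced early by transforming growth factor beta, was the steadiest member. It had 509 to 679 normalized counts in controls (median 565) against 587 to 718 with PTU (median 643). All 6 PTU pups lay above the control median, and 3 control pups reached into the PTU range. Its log2 fold change was 0.12 (SE 0.10, 95% interval -0.09 to 0.32, adjusted p = 0.561 in limma), with a two-sided exact permutation p of 0.133 before adjustment. The residual SD of *Klf10* was 0.13 on the log2 scale, a value above that of only 6.5% of all tested rows. *Klf2* and *Klf4*, with residual SDs of 0.64 and 0.59, were more variable than 86.4% and 83.6% of all rows, and the median was 0.35 over the members and 0.28 over all rows.

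**Figure D2:**
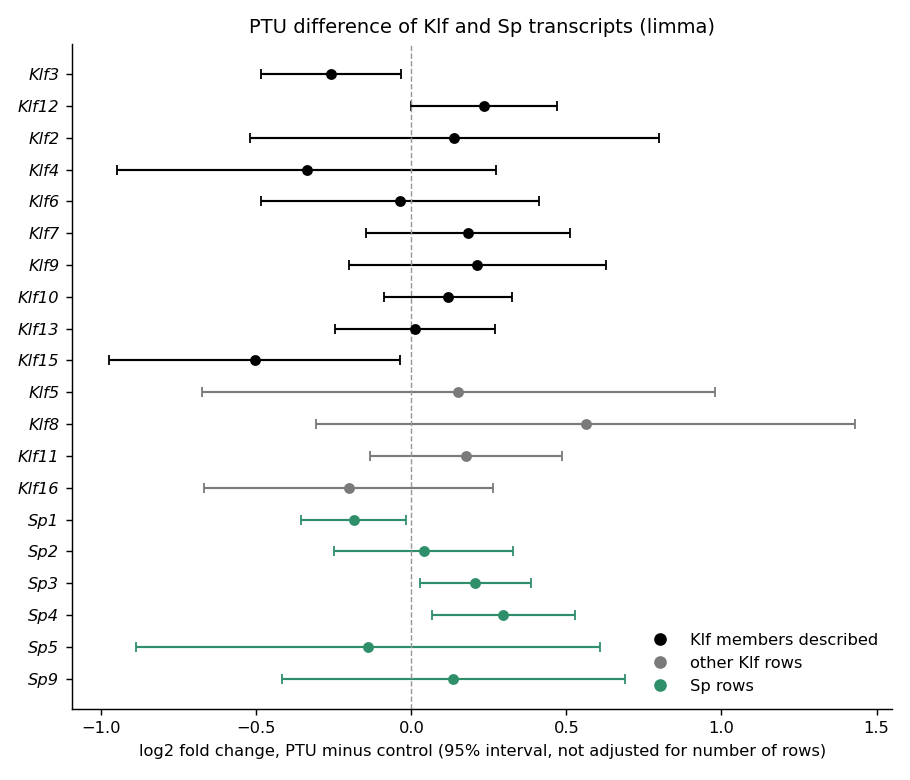
Log2 fold change (PTU minus control, limma) with its 95% interval, not adjusted for the number of rows, for the 10 Klf members (black), the 4 other Klf rows (grey) and the 6 Sp rows (green). Intervals of *Klf3*, *Klf15* and *Sp1* lie below 0 and those of *Sp3* and *Sp4* above 0, and 0 of these rows had an adjusted p of at most 0.05.

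No other row of the family passed the adjusted threshold. Of 7 other Klf genes, 4 had a row (*Klf5*, *Klf8*, *Klf11* and *Klf16*), none with an unadjusted p under 0.05 and with a smallest adjusted p of 0.508. *Klf8*, the third repressor that binds CtBP and a gene silenced by *Klf3* in blood cells, had 47.6 ± 16.9 normalized counts (SD, n = 7) in control and 83.4 ± 61.8 (SD, n = 6) in PTU pups, a log2 fold change of 0.56 (SE 0.41, adjusted p = 0.508 in limma). *Klf11*, the closest relative of *Klf10*, had a log2 fold change of 0.18 (adjusted p = 0.5684 in limma), and *Klf16* one of -0.20 (adjusted p = 0.675). With equal totals *Klf8* was at 0.76, *Klf11* at 0.38 and *Klf16* at -0.00051.

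The Sp proteins bind the same GC-rich sequences as the Kruppel-like factors. Of 9 Sp genes, 6 had a row, and 3 had an unadjusted p under 0.05 (16.3% of all rows), with 0 past the adjusted threshold. *Sp1*, the ubiquitous activator, had 3181 to 4204 normalized counts in controls (median 3441) against 2723 to 3382 with PTU (median 3209), and its log2 fold change was -0.19 (adjusted p = 0.270 in limma). *Sp3*, which competes with *Sp1* for the same sites, ranged from 2580 to 3396 in control and from 2984 to 4008 in PTU pups, and its log2 fold change was 0.21 (adjusted p = 0.250 in limma). *Sp4*, abundant in neurons, had 951 to 1269 in controls against 1094 to 1641 with PTU and a log2 fold change of 0.30 (adjusted p = 0.208 in limma). The groups overlapped in all 3 rows, and with equal totals *Sp1* turned to 0.02 while *Sp3* and *Sp4* were at 0.41 and 0.50.

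Partners through which the factors act had a row in 16 of 16 cases, and 1 of them, *Sin3b*, had an unadjusted p under 0.05, a share below the 16.3% of all rows. *Sin3b*, a scaffold of histone deacetylase complexes, had 2381 ± 218 normalized counts (SD, n = 7) in control and 2816 ± 264 (SD, n = 6) in PTU pups, with a log2 fold change of 0.24 (SE 0.08, adjusted p = 0.180 in limma) that was 0.44 with equal totals. Its paralog *Sin3a* was at 2831 ± 218 and 2835 ± 210, a log2 fold change of 0.0027. The CtBP genes *Ctbp1* and *Ctbp2*, partners of *Klf3* and *Klf12*, had log2 fold changes of 0.08 and 0.04 with adjusted p of 0.668 and 0.905 in limma. The median over the 16 partners was -0.01.

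Regulators upstream of the family had a row in 19 of 19 cases. Of these, 2 were higher and 2 lower in PTU pups at an unadjusted p under 0.05 (8.11% and 8.2% of all rows), with 0 past the adjusted threshold. *Heg1*, a receptor whose complex with *Krit1* restrains *Klf2* and *Klf4* in endothelium, had 4825 to 6195 normalized counts in controls (median 5562) against 3929 to 5345 with PTU (median 4603). Its log2 fold change was -0.26 (SE 0.08, adjusted p = 0.171 in limma), and *Krit1* had -0.27 (SE 0.12, adjusted p = 0.296). *Mef2a*, the factor that MEK5 and ERK5 signals use to induce *Klf2*, had 0.35 (SE 0.14, adjusted p = 0.242). *Hr*, the corepressor hairless and a known thyroid hormone target, had 0.68 (SE 0.31, adjusted p = 0.296). With equal totals *Heg1* and *Krit1* were at -0.06 each, and *Mef2a* and *Hr* at 0.55 and 0.88. The glucocorticoid receptor gene *Nr3c1* had -0.20 (adjusted p = 0.332), and the thyroid hormone receptor genes *Thra* and *Thrb* had 0.24 and 0.07 (adjusted p = 0.386 and 0.905), all in limma. With equal totals *Nr3c1* was at 0.00082, *Thra* at 0.44 and *Thrb* at 0.27.

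Genes that Kruppel-like factors are known to regulate had a row in 13 of 14 cases, 8 of them lower and 5 higher in PTU pups. At an unadjusted p under 0.05, 3 were lower and 0 higher (8.2% and 8.11% of all rows), and 0 passed the adjusted threshold. *S1pr1*, the sphingosine receptor induced by *Klf2* in lymphocytes, had 2055 to 3864 normalized counts in controls (median 2920) against 1687 to 2582 with PTU (median 2284), with a log2 fold change of -0.38 (SE 0.13, adjusted p = 0.175 in limma). *Pmp22*, a membrane protein of myelin, had a log2 fold change of -0.37 (SE 0.13, adjusted p = 0.188), and *Lgals3*, which *Klf3* represses, had -0.84 (SE 0.34, adjusted p = 0.242 in limma). *Lgals3* was a low row, with 62.6 ± 13.9 normalized counts in controls (SD, n = 7) and 38.4 ± 20.5 in PTU pups (SD, n = 6). *S1pr1* is also a gene of radial glia and astroglia, and the part of the lower radial glia score in its value was not tested. With equal totals, *S1pr1* was at -0.18, *Pmp22* at -0.17 and *Lgals3* at -0.64. *Prodh*, a target of *Klf15* in proline breakdown, had -0.33 (adjusted p = 0.335 in limma, -0.13 with equal totals), and the endothelial target *Nos3* had 172 ± 34.9 normalized counts (SD, n = 7) in control and 177 ± 67.3 (SD, n = 6) in PTU pups.

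Covariation between pups was examined after the mean of each group was removed, over 13 pups and 45 pairs of members. An unadjusted permutation p under 0.05 was found for 7 pairs, and 1 pair, *Klf7* and *Klf15*, had an adjusted p of at most 0.05 by Pearson's r (0 by Spearman's rho). For that pair r was -0.83 (permutation p = 0.0010, adjusted p = 0.0445 over 45 pairs) and rho was -0.70 (permutation p = 0.0136, adjusted p = 0.305). Control 5 was the lowest pup for *Klf7* and the highest for *Klf15*, and PTU 4 was the lowest PTU pup for *Klf7* and the highest for *Klf15*. Without these 2 pups r was -0.59, and within the groups it was -0.85 in control and -0.85 in PTU pups. Leaving out any 1 pup gave r from -0.89 to -0.67. Scaling to equal totals adds to each row of a pup a shift from -0.45 to 0.50 on the log2 scale, and r was then -0.24 (permutation p = 0.397). The inverse relation of *Klf7* and *Klf15* thus held under the median ratio scaling of the deposited values and not under equal totals.

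**Figure D3:**
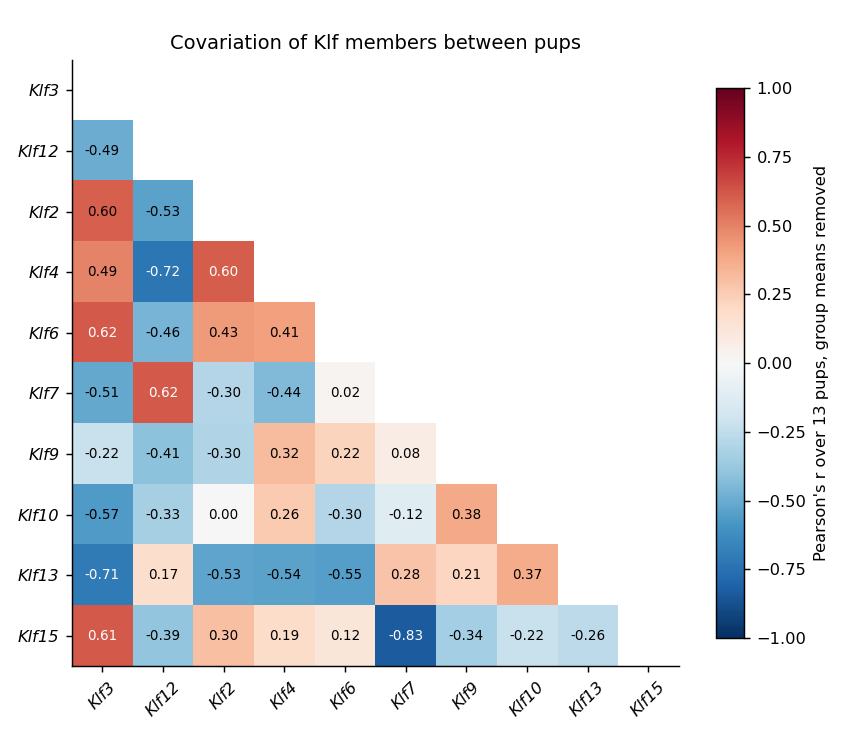
Pearson's r over 13 pups, with group means removed from log2(normalized count + 1), for each of the 45 pairs of Klf members (colour from -1 to 1, value printed). The lowest is -0.83 for *Klf7* and *Klf15*, and the highest, at 0.62, are those of *Klf3* with *Klf6* and of *Klf7* with *Klf12*.

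None of the other 44 pairs passed the adjusted threshold. *Klf4* and *Klf12* had r = -0.72 (permutation p = 0.0059, adjusted p = 0.132), *Klf3* and *Klf13* r = -0.71 (permutation p = 0.0266, adjusted p = 0.276), and *Klf3* and *Klf6* r = 0.62 (permutation p = 0.0254, adjusted p = 0.276). For *Klf3* and *Klf13*, r was -0.88 among control and 0.39 among PTU pups, a difference that was not tested. Of the 45 values of r, 22 were positive and the median was -0.12.

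The same deviations were set against scores of 11 lists, 9 of cell type markers, 1 of immediate early genes and 1 of glucocorticoid response genes, which gave 110 pairs. An unadjusted permutation p under 0.05 was found for 18, and 1 had an adjusted p of at most 0.05 by Pearson's r (0 by rho). That pair was *Klf12* and the choroid plexus score, with r = -0.80 (permutation p = 0.0003, adjusted p = 0.0308 over 110 pairs) and rho = -0.84 (permutation p = 0.0006, adjusted p = 0.0693). The value was -0.76 without the 2 pups farthest in the score (PTU 6 and control 6), -0.90 within control and -0.73 within PTU pups, and from -0.84 to -0.72 when any 1 pup was left out. With equal totals it was -0.15 (permutation p = 0.640). Among the 8 pups below the gap in *Klf12*, r of *Klf12* and the score was -0.39. The score lay between -0.06 and 0.75 in these pups, and between -1.69 and -0.24 in the 5 pups above the gap. The gap was picked from the values, so no test is given.

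The choroid plexus score was also related to *Klf7* (r = -0.67, permutation p = 0.0238, adjusted p = 0.238) and *Klf4* (r = 0.64, permutation p = 0.0127, adjusted p = 0.199), neither past the adjusted threshold, and the value for *Klf4* was 0.33 without PTU 6 and control 6. The score differed between the groups by -0.76 (two-sided exact permutation p = 0.0542, adjusted p = 0.178 over 11 lists), all 10 of its markers were lower in PTU pups, 6 of them at an unadjusted p under 0.05 (8.2% of all rows), and whether this has a part in the higher *Klf12* values of the PTU group was not tested.

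**Figure D4:**
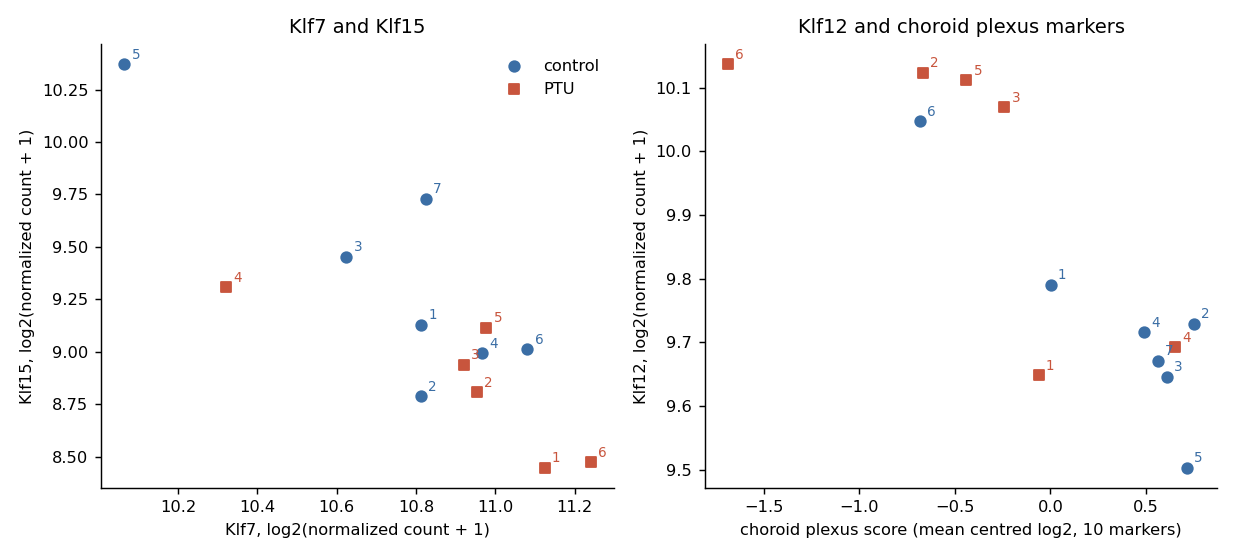
Left, *Klf15* against *Klf7*, both as log2(normalized count + 1). Right, *Klf12* on the same scale against the choroid plexus score, the mean centred log2 value over 10 markers, with 7 control (blue circles) and 6 PTU pups (red squares) numbered by replicate. Control 5 lies alone at the upper left of the first panel, and in the second *Klf12* is lower where the score is higher, with r = -0.80 once group means are removed.

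The other relations with lists did not pass the adjusted threshold. *Klf6* followed the glucocorticoid response genes with r = 0.77 (permutation p = 0.0044, adjusted p = 0.199) and the immediate early genes with r = 0.61 (permutation p = 0.0395, adjusted p = 0.264), and *Klf3* followed the glucocorticoid response genes with r = 0.62 (permutation p = 0.0101, adjusted p = 0.199). *Klf12* ran against the glucocorticoid response genes with r = -0.75 (permutation p = 0.0075, adjusted p = 0.199), and with r = -0.47 without PTU 1 and PTU 4, the 2 pups farthest in that score. The members known as induced by glucocorticoids had r = 0.18 (*Klf9*, permutation p = 0.617, adjusted p = 0.849) and r = 0.25 (*Klf15*, permutation p = 0.410, adjusted p = 0.691) with that list. For *Klf9*, r was -0.84 among control and 0.68 among PTU pups, a difference that was not tested. These 11 measured genes, among them *Fkbp5*, *Cdkn1c* and *Per1*, did not differ past the threshold between groups, with a score difference of -0.01 (two-sided exact permutation p = 0.928, adjusted p = 0.928). Neither did the 16 immediate early genes, with a difference of 0.09 (two-sided exact permutation p = 0.506, adjusted p = 0.696), although *Egr1* and *Egr3* had log2 fold changes of 0.74 and 1.10 and *Ccn2* of -0.61 (adjusted p = 0.255, 0.299 and 0.242 in limma).

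*Klf2* followed the endothelium score with r = 0.64 (permutation p = 0.0122, adjusted p = 0.199), and with r = 0.38 without PTU 2 and control 6, the 2 pups farthest in that score. The endothelium list had 8 of its 10 genes in the table, and those with the most normalized counts were *Kdr*, *Cdh5* and *Tie1*, with means of 995, 555 and 340 normalized counts over all pups. *Klf7* ran with the neuron score (r = 0.65, permutation p = 0.0214, adjusted p = 0.235) and against the radial glia score (r = -0.63, permutation p = 0.0174, adjusted p = 0.213), and *Klf15* ran with the radial glia score (r = 0.63, permutation p = 0.0110, adjusted p = 0.199) and against the neuron score (r = -0.57, permutation p = 0.0293, adjusted p = 0.248, but r = -0.21 without PTU 1 and control 5). Between groups, the neuron score differed by 0.63 (two-sided exact permutation p = 0.0927, adjusted p = 0.178), with all 10 markers, among them *Dcx*, *Map2* and *Tubb3*, higher in PTU pups. The part of these scores in the values of *Klf7* and *Klf15* was not tested.

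Of the other markers, astrocyte genes, among them *Aldoc*, *Aqp4* and *Gfap*, had a score difference of -0.25 (exact permutation p = 0.0874, adjusted p = 0.178), oligodendrocyte lineage genes of 0.36 (exact permutation p = 0.0973, adjusted p = 0.178) and endothelium of 0.24 (exact permutation p = 0.0944, adjusted p = 0.178). Mural cell, microglia and ependyma scores differed by 0.03, 0.06 and -0.24 (adjusted p = 0.862, 0.709 and 0.429, exact permutation tests). With equal totals the differences were 0.56 for oligodendrocyte lineage (exact permutation p = 0.0256, adjusted p = 0.282), 0.44 for endothelium, 0.26 for microglia, 0.23 for mural cells, -0.05 for astrocytes and -0.04 for ependyma. Those of neurons, choroid plexus, immediate early and glucocorticoid response genes were then 0.83, -0.56, 0.29 and 0.19, with an adjusted p of 0.282 or more in all 11 lists by the exact permutation test. Erythrocyte genes had 1 row of 5, *Hba-a1*, and no score.

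Rows most like each member were found among the 11085 other named rows with a mean of at least 100, by Pearson's r over the 13 pups with group means removed. With so many rows, high values arise in any search of this kind, and they are given as a description with no test. For *Klf3* they were *Prrc1* (0.91) and *Eda* (0.87), for *Klf12* *Celf1* (0.93), and for *Klf15* *Cpxm1* (0.96) and *Tyro3* (0.95). *Klf7* was nearest to *Ncam1*, a neural cell adhesion molecule (0.95), and *Exosc2* (0.94), *Klf6* to *Nrip1*, a nuclear receptor corepressor (0.93), and *Crim1* (0.90), and *Klf4* to *Bsg* (0.90) and *Lrp1b* (0.88). *Klf9* was nearest to *Sema3c*, a secreted axon guidance protein (0.92), and *Anks1b* (0.88), *Klf10* to *Mrpl23* (0.91) and *Slc27a3* (0.87), *Klf2* to *Tex15* (0.91) and *Sdhaf2* (0.90), and *Klf13* to *Ap3b2* (0.87) and *AABR07011951.1* (0.86). No member was among the nearest rows of another.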

How the data were processed

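RNA-Seq libraries of laser captured VZ from 7 control and 6 PTU exposed pups were used. Per the methods and the labels, the authors trimmed reads with Trimmomatic, aligned them to mRatBN7.2 (rn7) by STAR 2.7.8a, obtained counts from the E/M model of Partek and applied median ratio scaling. The deposited values are thus a normalized signal (normalized counts), not raw counts. The methods name a RefSeq annotation, whereas rows carry Ensembl transcript identifiers. Columns of the authors' own DESeq2 comparison (p-values, ratios, fold changes) were not used. Captured RNA was partly degraded according to the methods, and its part in these values was not tested.

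Rows whose mean was at least 10 entered as log2(normalized count + 1), a scale on which changes of low rows are understated, and were compared with limma 3.58.1 in R 4.3.3 (empirical Bayes with a variance trend, Benjamini-Hochberg adjustment over 14606 rows, threshold 0.05). Single values and list scores were compared with a two-sided exact permutation test over 1716 regroupings (smallest p 0.00117), and correlations with 100000 permutations within groups. The members and lists were chosen with earlier results of these data known. Genes named are all members, listed genes with an unadjusted p under 0.05 (otherwise examples by level), the 2 nearest rows of each member (1 of them is not reported here) and the 3 highest genes of a marker list. *Klf8*, *Sin3a*, *Ctbp1*, *Ctbp2*, *Nr3c1*, *Thra*, *Thrb*, *Prodh* and *Nos3* lie outside this rule and were named for their roles after their values were seen. The tests were tested on simulated data. Of low values, 88.1 to 89.7% were whole multiples of 1 step per pup (within 0.02 of a step), short of 95%, so no count model was used. Intervals give the uncertainty of the difference between group means, estimated from the variation between pups, and not the range of the pups. The closest pair of pups differed by an SD of 0.449 (log2). Further steps ran in Python 3.11.15 (pandas 2.3.3, numpy 2.4.6, matplotlib 3.10.9, scipy 1.17.1). Promoters came from RefSeq (GRCr8). Alternatives changed the pseudocount (0.1, 10), the minimum mean (none, 100), the scaling (equal totals, equal upper quartiles, quantiles), the rows (summed by name), the weights (by quality), the variance prior (no trend) and the samples (each pup left out in turn), or added the replicate number as a block.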

Additional observations from a re-analysis of the deposited data

How the results depend on the processing

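In limma, 0 members passed the adjusted threshold in the reported setting and in all 24 alternatives. The smallest adjusted p over the alternatives was 0.167 for *Klf3*, 0.181 for *Klf15* and 0.132 for *Klf12* (quality weights). The count of members with an unadjusted p under 0.05 was 2 as reported (16.3% of all rows). With quality weights it was 3 (*Klf12* in addition, 19.5% of all rows). It was 1 with equal totals (11.4% of all rows) and 1 without a variance trend (15.2% of all rows). When single pups were left out it was 0 to 4 (from 12.3 to 20.5% of all rows). The median log2 fold change of the members, 0.07 as reported, was 0.27 with equal totals, where that of all rows was 0.20, and ranged from -0.017 to 0.090 without single pups. Equal totals move every row of a pup by the same amount on the log2 scale, up to the pseudocount. The direction of *Klf6*, -0.04 as reported, turned with equal totals (0.16), with the replicate block (0.071) and without single pups (from -0.20 to 0.071). *Klf13*, 0.01 as reported, turned with quality weights (-0.050) and without single pups (from -0.066 to 0.075), and *Klf2*, 0.14 as reported, was -0.13 without control 6 (up to 0.29 without others). The cause of these turns was not tested. *Klf3* stayed below 0 (from -0.31 to -0.06), as did *Klf15* (from -0.60 to -0.30), and *Klf12* stayed above 0 (from 0.20 to 0.44). Replicate numbers name pups of different litters, and deviations of same-numbered pups had correlations from -0.07 to 0.20, above 0.1 in 4 of 6 numbers, and 5 of 12 pups correlated best with their own number. No label ties the numbers to a shared litter or day, so the pups were not treated as pairs. Whether same-numbered pups shared any handling was not tested. With the number as a block, which leaves control 7 without a partner, 18 rows and 0 members passed the adjusted threshold. In that fit 2 members had an unadjusted p under 0.05 (20.2% of all rows). Quality weights gave 40 rows past the adjusted threshold, leaving out PTU 2 gave 179 and leaving out control 6 gave 7, with 0 members among them. Equal totals for the listed genes, for the list scores and for 2 correlations, and single pups left out for those correlations, were added after seeing the data. Equal totals moved r to -0.24 for *Klf7* with *Klf15* and to -0.15 for *Klf12* with the choroid plexus score, turned *Sp1* to 0.016 and the glucocorticoid response score to 0.19, and ended the call for the radial glia score (-0.12).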

Other observations

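The ends of the members' ranges lay in a few pups. Control 5 was the lowest or the highest of the 13 pups for 5 of the 10 members, PTU 6 for 4, and control 6 and PTU 1 for 3 each, whereas control 2, control 3, control 4, PTU 2 and PTU 3 were at an end for 0. Control 6 was the lowest pup for *Klf2* and *Klf4* and the highest for *Klf13*. In 20 groups of member values (10 members in each of the groups), a gap test at the 95% level marked 0 pups, including control 5 for *Klf15* and PTU 1 for *Klf9*.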
